A study of Arabidopsis thaliana with 6 samples.

Results

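Expansins are the genes described here: all loci of the deposited tables whose protein description names an expansin-A, an expansin-B or an expansin-like protein. This rule found 39 of the 33602 loci, namely 29 of the alpha-expansin class (EXPA), 6 beta-expansins (EXPB), 3 expansin-like A genes (EXLA) and 1 expansin-like B gene (EXLB). Of the 39 loci, 36 are annotated as protein-coding. The other 3 are AT4G38215, a non-coding RNA gene on the opposite strand of EXPA20, and the transcribed pseudogenes EXPA19 and AT5G15546. The short locus AT1G02320 also carries an expansin description.

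Expansins are secreted proteins of the plant cell wall that let wall polymers slip past each other without cutting them. They act at acid pH, so that proton pumping by plasma membrane H+-ATPases loosens the wall and lets a cell enlarge, a process called acid growth. Alpha-expansins are the class tied most closely to the growth of seedling organs and root hairs, beta-expansins include the group-1 pollen allergens of grasses, and the expansin-like classes are known mainly from their sequence.

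Expression was measured by RNA sequencing of whole seedlings of Arabidopsis thaliana. One genotype was Col-0, labelled wild type, and the other was the toc1-21 prr5-1 double mutant, in which the clock genes TOC1 and PRR5 are mutated. Plants of both genotypes were 10 days old, had been grown on MS medium with 3% sucrose at 22 °C under LD conditions, and were harvested at ZT15, meaning 15 h into a day counted from dawn. There were 3 libraries per genotype, called biological replicates in the design text. Nothing in the sources used here says how separately these were grown, and a p-value therefore reflects only how far these 6 samples spread. The labels do not give the accession in which either mutation arose.

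Values are RPKM, that is read numbers divided by gene length and by library size, and the reads behind them numbered between 14617043 and 26792712 per library. TOC1 lay between 32.0 and 34.9 RPKM in Col-0 and between 14.8 and 18.6 RPKM in the mutant, and PRR5 between 2.88 and 3.01 RPKM and between 0.926 and 1.35 RPKM. Transcripts of PIF4 and PIF5, growth-promoting transcription factors named in the title of the series, were higher in the mutant, with log2 fold changes of 1.20 and 1.70 (limma adjusted p = 0.000468 and 3.46e-05). In Col-0 replicate 3 root hair genes were low, and EXPA7 and EXPA18 were also at their lowest there.

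At least 1 RPKM in at least 3 libraries was asked of a gene to be tested, and 25 of the 39 expansin loci passed. These were 19 EXPA loci, EXPB1, EXPB3, EXLA1, EXLA2, EXLA3 and EXLB1. The 14 loci under the filter held 10 that were at 0 in all 6 libraries, namely EXPA19, EXPA22 to EXPA26, AT5G15546, EXPB4, EXPB5 and EXPB6. A count of 0 allows up to 3 reads, which in a gene of 1 kb is 0.112 to 0.205 RPKM depending on the library, counting error only. The remaining 4, EXPA12, EXPA21, EXPB2 and AT1G02320, reached at most 0.931 RPKM, and EXPA12 was the only one of them with reads in every library, between 4 and 21. EXPA21 to EXPA26 lie together on chromosome 5 between 15726243 and 15740605 (TAIR10.1). EXPA22 and EXPA26 share 97.7% of their coding bases and EXPA23 and EXPA25 share 97.1%. No source used here says how reads that match several genes were treated, so a value of 0 for these 4 genes is uncertain.

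Among the tested loci the mean level over 6 libraries ran from 194.1 RPKM for EXPA1 to 0.974 RPKM for EXLA3. EXPB3 came next at 108.5 RPKM, followed by EXPA15 at 84.7, EXPA6 at 78.0, EXPA4 at 74.7, EXPA8 at 69.5, EXPA11 at 69.3, EXPA3 at 65.2 and EXLB1 at 39.7 RPKM. The 4 most abundant genes together made up 48.6% to 50.8% of all expansin RPKM in the Col-0 libraries and 45.0% to 46.1% in the mutant libraries. The share of EXPA1 alone was 21.4% to 22.1% in Col-0 and 16.8% to 19.7% in the mutant.

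**Figure D1:**
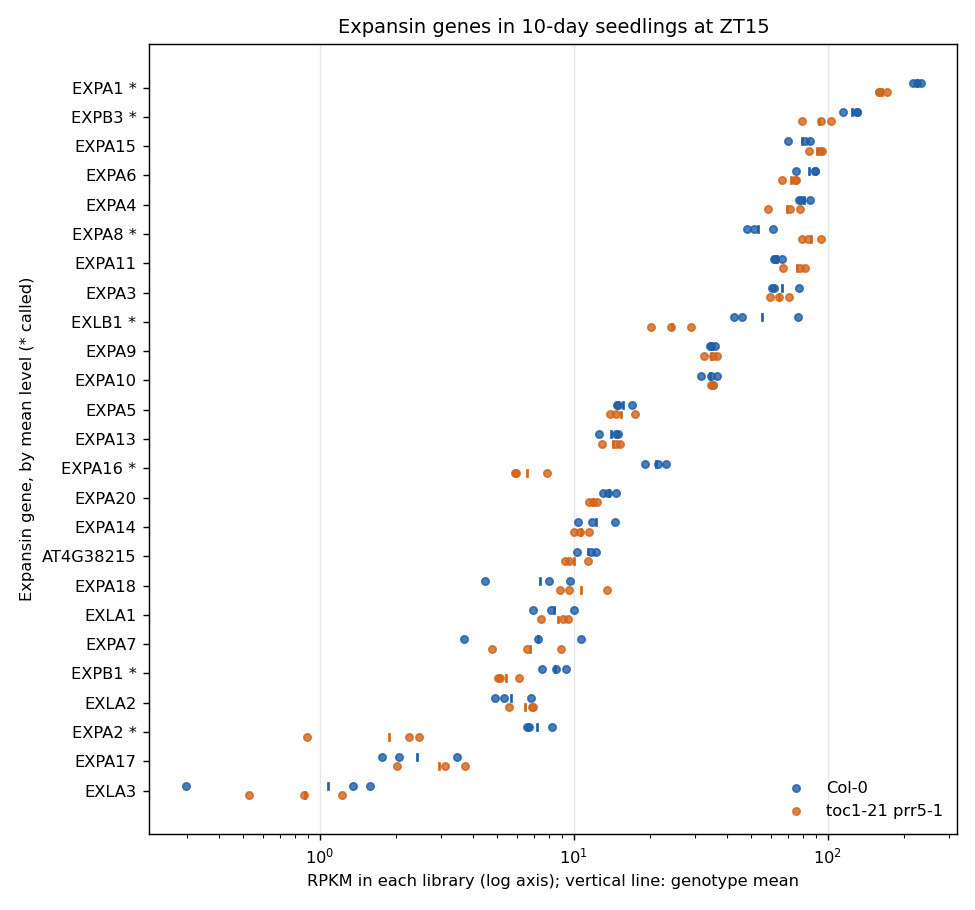
Level of the 25 tested expansin loci in each library, in RPKM on a log axis, ordered by mean level, with Col-0 in blue, toc1-21 prr5-1 in orange and a vertical line at each genotype mean. EXPA1 stands highest at 159.4 to 232.1 RPKM, and the 7 genes with an asterisk had a limma adjusted p under 0.05.

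Of the 25 tested loci 7 differed between the genotypes, 6 lower and 1 higher in the mutant, at a limma adjusted p under 0.05 over all 19710 tested genes. That is 28% of the tested loci, against 10.6% of all tested genes. By direction, 6.65% of all tested genes were called lower and 3.90% higher. The genes that fell were EXPA16, EXPA2 and EXPA1 of the alpha class, EXPB1 and EXPB3 of the beta class, and EXLB1. EXPA8 rose. The 25 loci passed a filter on their own levels, so these counts describe only the expressed part of the family. The median log2 fold change of the tested loci was -0.03, against -0.01 over all tested genes. The values of the genotypes did not overlap for 10 tested loci, where 27.0% of all tested genes showed no overlap. In whole seedlings, fewer cells of a type and less RNA per cell cannot be told apart. All libraries were from ZT15, so a shift in daily timing and a change in level through the day cannot be told apart either.

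**Figure D2:**
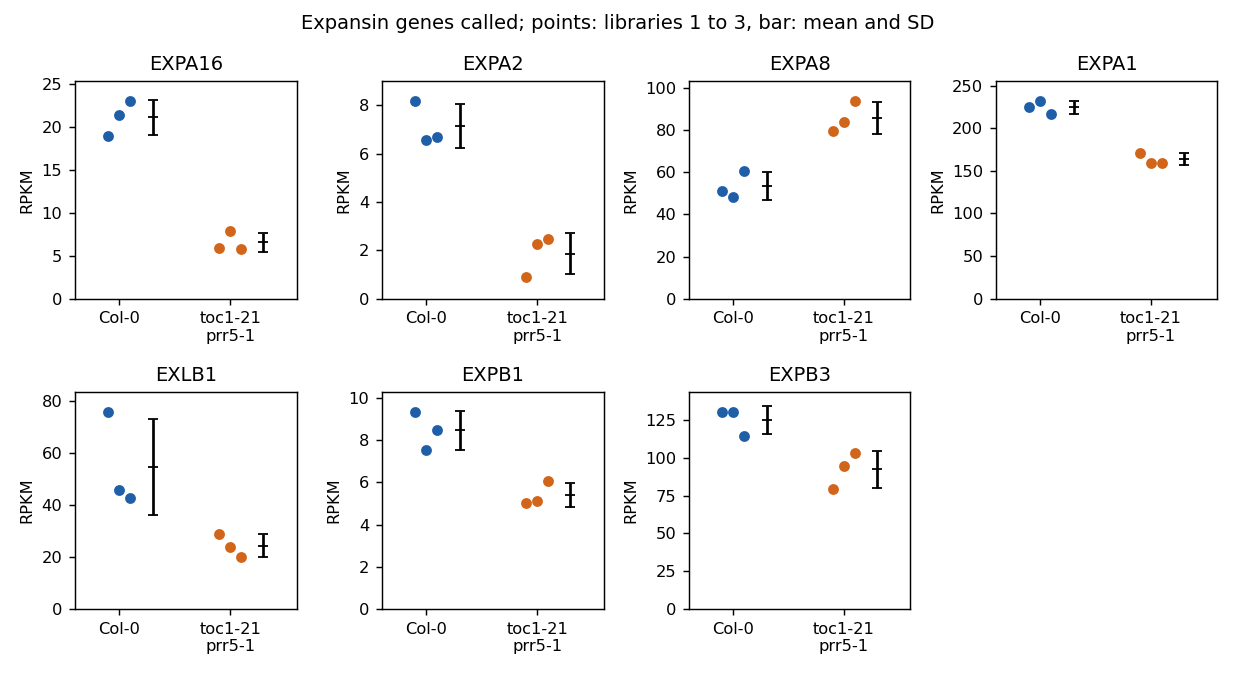
RPKM of the 7 expansin genes called between the genotypes, with 1 point per library and the mean with its SD (n = 3) beside the points; each axis starts at 0. The genotypes do not overlap in any of the 7 panels, and EXPA8 is the gene whose mutant values are the higher ones.

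EXPA16 showed the smallest p of the family. This alpha-expansin gene lies on chromosome 3 at 20574752 to 20576249 (TAIR10.1, as for all positions given here). With libraries in the order of their replicate numbers, here and below, Col-0 held 19.0, 21.4 and 23.1 RPKM and the mutant 5.93, 7.87 and 5.85 RPKM. Every mutant library was thus below every Col-0 library. The mean fell from 21.2 ± 2.04 to 6.55 ± 1.14 RPKM (SD, n = 3 each), or 3.23-fold (log2 fold change -1.56, SE 0.128, limma adjusted p = 4e-05). All log2 fold changes are mutant over Col-0 on the log2(RPKM + 1) scale, which understates the change of low genes.

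EXPA2, an alpha-expansin gene known from germinating seeds, lies on chromosome 5 at 1568694 to 1569915. It was at 8.18, 6.57 and 6.69 RPKM in Col-0 and at 0.888, 2.25 and 2.46 RPKM in the mutant, and mutant replicate 1 was the lowest of the 6 libraries. The mean fell from 7.15 ± 0.902 to 1.87 ± 0.854 RPKM (SD, n = 3 each), 3.83-fold lower (log2 fold change -1.55, SE 0.222, limma adjusted p = 0.00147). The values rest on 18 to 145 reads per library, the fewest of the 7 called genes. With a pseudocount of 5 RPKM the log2 fold change was -0.83.

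EXPA8 moved the other way. It lies on chromosome 2 at 16948791 to 16950705. The 3 Col-0 libraries held 51.1, 48.0 and 60.8 RPKM and the mutant libraries 79.4, 83.9 and 93.9 RPKM, so that the lowest mutant value was above the highest Col-0 value. The mean rose 1.61-fold, from 53.3 ± 6.65 to 85.7 ± 7.39 RPKM (SD, n = 3 each), with a limma adjusted p of 0.00253 for a log2 fold change of 0.68 (SE 0.106).

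EXPA2 and EXPA8 are each other's closest relatives among the tested loci, with 69.6% of aligned coding bases identical, and they changed in opposite directions. The RPKM of EXPA8 was 6.24, 7.32 and 9.09 times that of EXPA2 in the Col-0 libraries and 89.5, 37.3 and 38.2 times in the mutant libraries. In Col-0 EXPA2 was at 7.15 ± 0.902 RPKM beside 53.3 ± 6.65 RPKM for EXPA8 (SD, n = 3 each).

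EXPA1, the most abundant expansin gene of these seedlings, is known from guard cells and roots and lies on chromosome 1 at 26141726 to 26143538. It was at 225.3, 232.1 and 216.9 RPKM in Col-0 and at 171.4, 159.4 and 159.7 RPKM in the mutant, with a gap between the genotypes wider than the spread within either. The mean was 1.38-fold lower in the mutant (log2 fold change -0.46, SE 0.078, limma adjusted p = 0.00438). Each value rests on at least 4463 reads. Guard cell markers moved in both directions. Of 10 tested markers, GC1 was called higher and OST1, a kinase of stomatal closure, lower, against 3.90% and 6.65% of all tested genes, and none was at 0. The log2 fold change was below 0 for 6 of the 10. The summed level of the 10 markers was 170.5 to 183.1 RPKM in Col-0 and 202.3 to 209.7 RPKM in the mutant. Without GC1 the other 9 summed to 116.9 to 124.5 RPKM in Col-0 and 108.9 to 123.9 RPKM in the mutant, so the genotypes overlapped. The part of these marker levels in the EXPA1 result was not tested.

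Upstream sequences are shown for EXPA2 and EXPA8, the relatives that moved in opposite directions, for EXPA1 as the most abundant member and for EXPA16 as the gene with the smallest p. Each is the 250 bases before the annotated gene start, read 5′ to 3′ on the strand of the gene from TAIR10.1, at chr5:1568444-1568693 (plus strand), chr2:16950706-16950955 (minus strand), chr1:26141476-26141725 (plus strand) and chr3:20576250-20576499 (minus strand). Capitals mark matches to the PBE-box, CACATG or its reverse complement, a motif that PIF factors are known to bind.
EXPA2: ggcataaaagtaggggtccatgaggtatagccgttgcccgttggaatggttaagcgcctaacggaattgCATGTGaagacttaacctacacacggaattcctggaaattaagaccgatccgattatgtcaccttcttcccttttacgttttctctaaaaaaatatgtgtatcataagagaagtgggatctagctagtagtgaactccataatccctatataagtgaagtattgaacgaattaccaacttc
EXPA8: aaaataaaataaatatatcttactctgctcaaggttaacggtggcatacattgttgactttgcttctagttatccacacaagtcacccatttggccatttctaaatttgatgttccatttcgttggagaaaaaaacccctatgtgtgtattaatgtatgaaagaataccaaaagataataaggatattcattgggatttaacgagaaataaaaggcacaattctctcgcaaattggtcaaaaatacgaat
EXPA1: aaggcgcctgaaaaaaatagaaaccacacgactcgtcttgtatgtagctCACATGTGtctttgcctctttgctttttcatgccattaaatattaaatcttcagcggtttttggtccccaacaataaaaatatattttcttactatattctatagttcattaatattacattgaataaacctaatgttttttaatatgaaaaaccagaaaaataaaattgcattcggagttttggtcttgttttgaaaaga
EXPA16: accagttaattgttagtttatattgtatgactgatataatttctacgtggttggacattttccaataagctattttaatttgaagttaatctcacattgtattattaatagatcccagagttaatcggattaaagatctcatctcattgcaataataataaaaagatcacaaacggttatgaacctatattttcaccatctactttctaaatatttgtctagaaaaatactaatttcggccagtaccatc

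EXPA2 has 1 match, which begins 181 bases before the gene start, and EXPA1 has a pair of matches on opposite strands that share bases, beginning 201 and 199 bases before the start. The windows of EXPA8 and EXPA16 hold none. Across the 24 protein-coding tested expansin genes 6 windows held a PBE-box, as did 2 of the 7 of called genes, against 11.2% of the windows of 26711 protein-coding genes. The other tested genes with a PBE-box were EXPA10, EXPA11, EXPA13 and EXPA17, none of them called. EXPA10, the closest tested relative of EXPA1, has a like pair of matches, beginning 131 and 129 bases before the start. It was nearly level between the genotypes (log2 fold change 0.03, limma adjusted p = 0.879). The G-box (CACGTG, its own reverse complement) was in 6.58% of all windows and in none of the 24. The evening element (AAAATATCT, either strand) was in 2.40% of all windows and in none of the 24, and the CCA1-binding site (AAAAATCT, either strand) was in 6.74% of all windows and in that of EXPA5 alone among the 24. In the printed windows the PBE-box was the only one of these 4 motifs with a match. A match is a description of letters, and no match says only that these letters are not in the window.

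Both tested beta-expansin genes were lower in the mutant. EXPB3, the second most abundant expansin gene, lies on chromosome 4 at 13999625 to 14002124. It was at 130.3, 129.8 and 114.3 RPKM in Col-0 and at 79.4, 94.1 and 103.1 RPKM in the mutant, without overlap. The mean fell from 124.8 ± 9.11 to 92.2 ± 12.0 RPKM (SD, n = 3 each), with a limma adjusted p of 0.0285 for a log2 fold change of -0.44 (SE 0.108). EXPB1 lies on chromosome 2 at 8940833 to 8942706. It was at 9.35, 7.52 and 8.50 RPKM in Col-0 and at 5.03, 5.14 and 6.06 RPKM in the mutant, again without overlap. Its mean was 1.56-fold lower in the mutant (log2 fold change -0.56, SE 0.123, limma adjusted p = 0.0167). EXPB1 and EXPB3 are each other's closest relatives, with 76.0% of coding bases identical. EXPB1 and EXPB3 were the called genes that lost their calls under other settings. With Col-0 replicate 1 or 2 left out, EXPB3 had a limma adjusted p of 0.118 or 0.0663, and with mutant replicate 1 or 2 left out, 0.119 or 0.0823. Its call was also lost with no filter on low genes (0.0553) and without the mean-variance trend (0.0635). EXPB1 missed the threshold with Col-0 replicate 1 left out (limma adjusted p = 0.0833) and with either mutant replicate 1 or 2 left out (limma adjusted p = 0.0800 and 0.0756).

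EXLB1, the single expansin-like B gene, lies on chromosome 4 at 9581562 to 9583290. It was at 76.1, 45.9 and 42.7 RPKM in Col-0 and at 29.0, 24.0 and 20.2 RPKM in the mutant. Col-0 replicate 1 stood well above the other Col-0 libraries, and all mutant values were below all Col-0 values. The mean fell from 54.9 ± 18.4 to 24.4 ± 4.40 RPKM (SD, n = 3 each), 2.25-fold lower (log2 fold change -1.10, SE 0.204, limma adjusted p = 0.00668). Without Col-0 replicate 1 the log2 fold change was -0.85 (limma adjusted p = 0.00925).

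None of the 3 expansin-like A genes was called by limma or by limma-voom, and none had an unadjusted p under 0.05. Among all tested genes limma called 10.6%. EXLA1 was at 8.16, 9.99 and 6.93 RPKM in Col-0 and at 7.41, 9.10 and 9.53 RPKM in the mutant (log2 fold change 0.05, 95% interval -0.27 to 0.38, limma adjusted p = 0.888). EXLA2, studied for its part in susceptibility to Botrytis, was at 5.32, 6.82 and 4.90 RPKM in Col-0 and at 6.94, 6.82 and 5.58 RPKM in the mutant (0.16, interval -0.16 to 0.48, limma adjusted p = 0.591). For both genes the genotypes overlapped. EXLA3, a neighbour of EXLA1 on chromosome 3, held 7 to 27 reads per library and passed the filter with 3 libraries only, at 1.35, 1.57 and 0.298 RPKM in Col-0 and 0.864, 0.528 and 1.23 RPKM in the mutant. Its interval was correspondingly wide (-0.72 to 0.51, limma adjusted p = 0.888). EXLA1 and EXLA3 share 86.0% of their coding bases, the most of any tested pair.

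**Figure D3:**
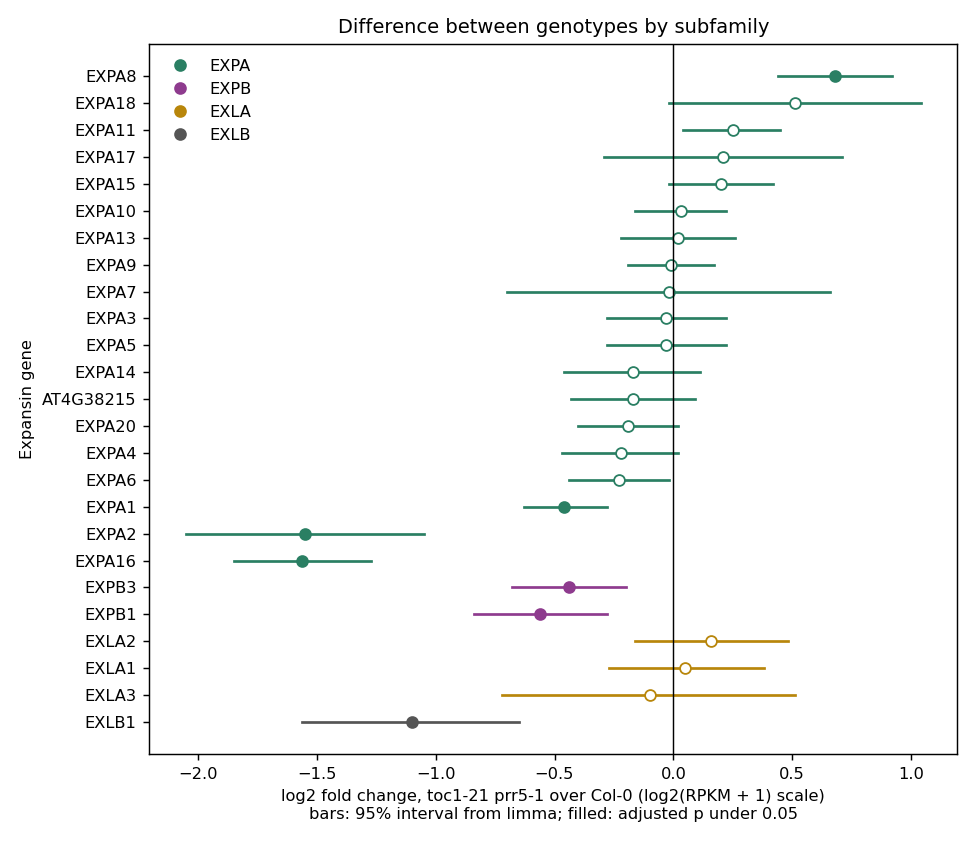
Log2 fold change of each tested expansin locus, toc1-21 prr5-1 over Col-0 on the log2(RPKM + 1) scale, coloured by subfamily; bars are 95% intervals from limma and filled points had an adjusted p under 0.05. EXPA8 at 0.68 is the single filled point right of 0, and EXPA16 at -1.56, EXPA2 at -1.55 and EXLB1 at -1.10 lie farthest left.

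Several abundant alpha-expansin genes did not pass. EXPA11 was at 62.0, 65.8 and 61.6 RPKM in Col-0 and at 66.8, 81.6 and 77.7 RPKM in the mutant (log2 fold change 0.25, 95% interval 0.04 to 0.45, limma adjusted p = 0.136). EXPA6 was at 75.1, 89.2 and 88.6 RPKM in Col-0 and at 66.0, 74.7 and 74.2 RPKM in the mutant (-0.23, interval -0.44 to -0.02, limma adjusted p = 0.187). For these 2 genes and for EXPA20 the genotypes did not overlap, yet the adjusted p missed the threshold. EXPA15 was at 85.4, 81.5 and 69.5 RPKM in Col-0 and at 84.0, 94.5 and 93.0 RPKM in the mutant (0.20, interval -0.02 to 0.42, limma adjusted p = 0.268). EXPA4 was at 78.3, 85.2 and 77.3 RPKM in Col-0 and at 58.4, 71.0 and 77.9 RPKM in the mutant (-0.22, interval -0.47 to 0.02, limma adjusted p = 0.274). Both overlapped between the genotypes, in opposite directions of the mean. EXPA4 is the closest tested relative of EXPA16, with 80.2% of coding bases identical.

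Other alpha-expansin genes were nearly level between the genotypes. EXPA3 was at 60.1, 61.2 and 76.8 RPKM in Col-0 and at 59.1, 64.0 and 70.2 RPKM in the mutant (log2 fold change -0.03, 95% interval -0.28 to 0.22, limma adjusted p = 0.925). EXPA9, its closest relative with 74.4% of coding bases identical, was at 34.6, 34.5 and 35.9 RPKM in Col-0 and at 32.5, 35.2 and 36.5 RPKM in the mutant (-0.01, interval -0.19 to 0.17, limma adjusted p = 0.960). In both genes the genotypes covered nearly the same range. EXPA10, known for a role in leaf growth, was at 34.8, 31.6 and 36.7 RPKM in Col-0 and at 35.4, 35.4 and 34.6 RPKM in the mutant. EXPA5, linked to growth in response to brassinosteroid, was at 14.9, 14.9 and 17.0 RPKM in Col-0 and at 14.6, 17.4 and 13.9 RPKM in the mutant. The intervals of these 2 genes ran from -0.16 to 0.22 and from -0.28 to 0.22 on the log2 scale. EXPA13 was at 14.98, 12.6 and 14.6 RPKM in Col-0 and at 15.2, 12.9 and 14.7 RPKM in the mutant (interval -0.22 to 0.26).

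EXPA20 and the non-coding locus AT4G38215 overlap on opposite strands of chromosome 4, at 17922756 to 17923973 and 17922913 to 17924252. EXPA20 was at 13.6, 14.6 and 13.1 RPKM in Col-0 and at 12.4, 11.9 and 11.5 RPKM in the mutant. AT4G38215 was at 11.7, 12.2 and 10.3 RPKM in Col-0 and at 11.4, 9.56 and 9.20 RPKM in the mutant. Neither was called (limma adjusted p = 0.268 and 0.459). The libraries came from a directional kit, but no source used here says whether reads were counted by strand, so reads of the 2 loci cannot be told apart.

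EXPA14 and EXPA17 are known targets of LBD18, a factor of lateral root emergence. EXPA14 was at 14.6, 11.8 and 10.4 RPKM in Col-0 and at 9.98, 11.5 and 10.5 RPKM in the mutant. EXPA17 was at 2.05, 3.46 and 1.76 RPKM in Col-0 and at 2.01, 3.11 and 3.72 RPKM in the mutant. Both overlapped between the genotypes (limma adjusted p = 0.506 and 0.670). Of 6 lateral root genes 2 passed the filter, LBD16 and LAX3, and neither was called by limma or by limma-voom or had an unadjusted p under 0.05. LBD18 itself, at 0.378 to 1.72 RPKM over the libraries, was under the filter and was not tested. By limma 10.6% of all tested genes were called.

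Root hairs are the site of EXPA7 and EXPA18, which share 71.6% of their coding bases. EXPA7, needed for root hair elongation, was at 7.22, 10.7 and 3.71 RPKM in Col-0 and at 4.76, 8.92 and 6.55 RPKM in the mutant. EXPA18 was at 7.99, 9.67 and 4.46 RPKM in Col-0 and at 9.58, 13.5 and 8.85 RPKM in the mutant. For both genes Col-0 replicate 3 was the lowest of the 6 libraries and the genotypes overlapped, with limma adjusted p of 0.980 and 0.245. The log2 fold change of EXPA7 was -0.02 (95% interval -0.70 to 0.66) and that of EXPA18 was 0.51 (interval -0.02 to 1.04). Without Col-0 replicate 3 these values were -0.38 and 0.23 (limma adjusted p = 0.365 and 0.477).

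All 13 root hair marker genes were also at their lowest Col-0 value in replicate 3. Their summed level was 121.6, 130.1 and 45.5 RPKM in Col-0 and 113.4, 165.4 and 97.8 RPKM in the mutant. None of the 13 was at 0 in any library. Their median log2 fold change was 0.31, with 0 of 13 called by limma or by limma-voom and 0 at an unadjusted p under 0.05. Of all 19710 tested genes 10.6% were called by limma and 4406 had an unadjusted limma p under 0.05. The SE of the 13 log2 fold changes ran from 0.166 for RHD6 to 0.472 for RHS13, so the absence of calls says little. The part of this marker level in the values of EXPA7 and EXPA18 was not tested. Among 7 other root genes, which include SHR, SCR and CASP1, none was called by limma or by limma-voom, and none had an unadjusted p under 0.05. Their summed level was 69.9 to 70.1 RPKM in Col-0 replicates 1 and 2, 56.2 RPKM in Col-0 replicate 3 and 58.9 to 70.8 RPKM in the mutant.

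**Figure D4:**
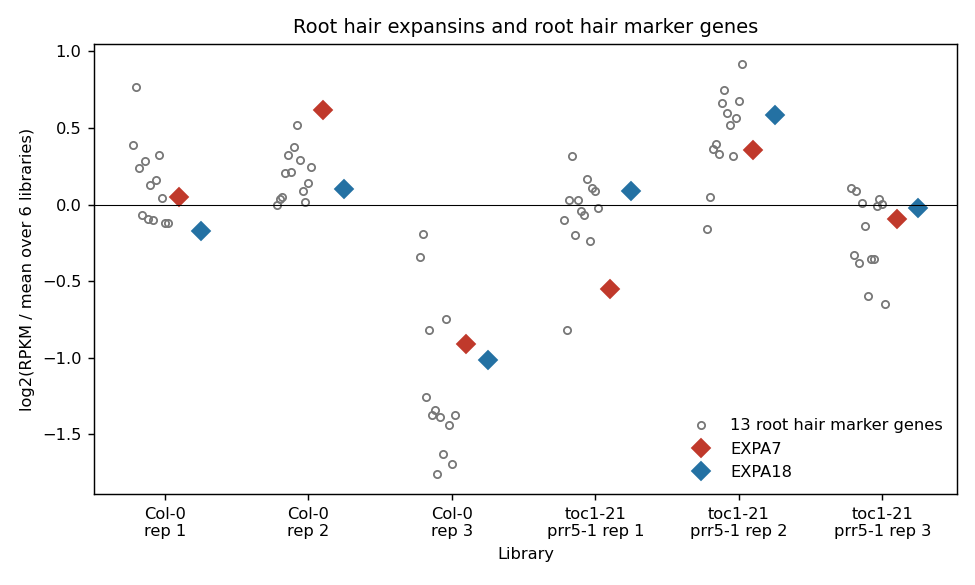
Level of EXPA7, EXPA18 and 13 root hair marker genes in each library, as the log2 ratio to the mean of each gene over 6 libraries; grey circles are single marker genes. In Col-0 replicate 3 the circles and both expansins lie below 0, where the summed marker level was 45.5 RPKM.

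Summed over all 39 loci, expansin RPKM was 1054, 1049 and 1007 in the Col-0 libraries and 869.0, 939.5 and 951.5 in the mutant libraries. The sum was lower in every mutant library than in any Col-0 library. The means differed by -116.8 RPKM, to which the 6 genes called lower contributed -147.3 RPKM, EXPA8 32.4 RPKM and all other loci a net -1.9 RPKM. This split follows calls made on the same values. Within the net value EXPA6 stood at -12.7 and EXPA4 at -11.2 RPKM, and EXPA11 at 12.3 and EXPA15 at 11.7 RPKM. EXPA1 accounted for -61.3 RPKM, EXPB3 for -32.6 RPKM and EXLB1 for -30.5 RPKM. By class, the EXPA sum was 822.8 to 847.6 RPKM in Col-0 and 740.5 to 805.3 RPKM in the mutant, and the EXPB sum was 122.8 to 139.9 and 84.4 to 109.6 RPKM. The EXLA sum was 12.1 to 18.4 and 15.2 to 16.5 RPKM.

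**Figure D5:**
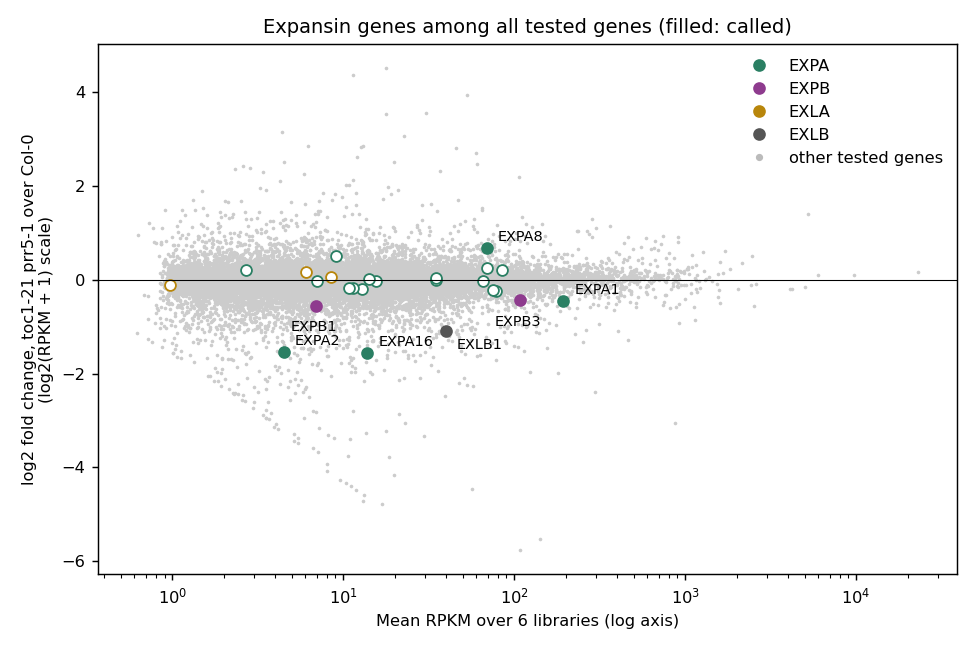
Log2 fold change (toc1-21 prr5-1 over Col-0, log2(RPKM + 1) scale) against mean RPKM on a log axis for all 19710 tested genes in grey, with the 25 tested expansin loci coloured by subfamily and filled where called. EXPA16, EXPA2 and EXLB1 lie below the bulk of genes of like level, and most other expansins lie near 0.

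Called genes were also counted in the chromosomal neighbourhood of each called expansin gene. Within 500 kb on either side of the start, 25.3% of the tested neighbours of EXPA1 (46 of 182) and 25.1% of those of EXLB1 (48 of 191) were called, against 10.6% of all tested genes. Around the other 5 called genes the share was lower, at 3.0% for EXPA2, 4.3% for EXPB1, 8.7% for EXPA16, 8.7% for EXPB3 and 10.0% for EXPA8. EXPA5, which was not called, had 33.8% of its 74 tested neighbours called. EXPA7, also not called, had 19.2% (42 of 219). For the other tested loci not called the share ran from 1.7% for EXPA10 to 11.6% for EXPA4. The part of the neighbourhood in the results of EXPA1 and EXLB1 was not tested.

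Acid growth genes set the wall pH at which expansins act. Of 23 tested genes of this list, 3 were called, of which 2 had risen and 1 had fallen (13.0% called, against 10.6% of all tested genes), with a median log2 fold change of 0.05. AHA1, a main plasma membrane H+-ATPase, was at 391.0, 388.0 and 414.7 RPKM in Col-0 and at 314.1, 307.9 and 309.6 RPKM in the mutant (log2 fold change -0.36, SE 0.080, limma adjusted p = 0.0187). SAUR20, of a group of small auxin-induced proteins that keep the pumps active, was at 7.19, 6.24 and 6.74 RPKM in Col-0 and at 9.94, 8.29 and 9.92 RPKM in the mutant (0.43, SE 0.115, limma adjusted p = 0.0431). PP2C.D1, of the phosphatases that turn the pumps off, was at 13.2, 13.0 and 15.5 RPKM in Col-0 and at 17.5, 20.3 and 18.6 RPKM in the mutant (0.41, SE 0.104, limma adjusted p = 0.0314). None of these 3 genes overlapped between the genotypes. The SAUR19 to SAUR24 genes are close copies of each other, so the value of each is uncertain. AHA1 lost its call when Col-0 replicate 1 or any of the mutant libraries was left out. No gene of the list was called higher by limma without mutant replicate 2 or 3, and 1 was without Col-0 replicate 1 or 2 or mutant replicate 1, while limma-voom on all 6 libraries called AHA1, PP2C.D1 and AHA11, another H+-ATPase gene, but not SAUR20 (limma-voom adjusted p = 0.216).

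Among 12 tested genes of cellulose and xyloglucan synthesis, 2 were lower and 10 did not pass (16.7% called, against 10.6% of all tested genes, of which 6.65% lower), with a median log2 fold change of -0.05. CESA6, a cellulose synthase of the primary wall, was at 92.1, 82.9 and 92.7 RPKM in Col-0 and at 63.4, 67.2 and 69.6 RPKM in the mutant (log2 fold change -0.41, SE 0.082, limma adjusted p = 0.00994). CSLC4, which makes the xyloglucan backbone, was at 18.4, 20.0 and 19.0 RPKM in Col-0 and at 12.4, 14.8 and 15.3 RPKM in the mutant (-0.41, SE 0.102, limma adjusted p = 0.0304). Both were lower in every mutant library than in any Col-0 library. Without Col-0 replicate 1 or mutant replicate 1, 0 genes of this list were called by limma, and 1 was without Col-0 replicate 2 or 3 or mutant replicate 2, while limma-voom on all 6 libraries called 2.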

How the data were processed

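RNA from whole seedlings was sequenced in 6 libraries, 3 per genotype. Trizol extraction, a DNase I step and a directional library kit are given per the labels' protocols. The authors deposited RPKM per gene and library, per the file headers. The submitters' processing notes name TopHat2, TopHat and edgeR as tools of the authors and TAIR10 as build, with no role or version.

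A gene was tested where 3 or more libraries reached 1 RPKM (19710 genes). Its log2(RPKM + 1) values went into limma 3.58.1 (R 4.3.3) with a mean-variance trend and no term beside genotype. P-values were Benjamini-Hochberg adjusted over these genes and called at 0.05. The fit was tested on simulated data. Library depth was taken from the low RPKM steps. Whole read numbers that fit the RPKM to within 0.001 were found for 25139 of 25139 genes above 0. They were used for limma-voom as an alternative and for depth, which limits precision in low genes. The smallest whole numbers that fit all 6 libraries were taken, so the reads of some genes may be too few by a common factor. Positions and names came from TAIR10.1, which matched 39 of 39 expansin loci. Coding sequences (the longest of each gene) were aligned globally with Biopython 1.88, and identity is over all aligned columns. Other settings were another pseudocount, filter, scaling or trend, a replicate block and leaving out each library.

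Members and gene lists were chosen with earlier results of these data known. The naming rule takes every expansin locus, giving tested ones in all 6 libraries, and the called genes of the other lists.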

Additional observations from a re-analysis of the deposited data

How the results depend on the processing

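EXPA16, EXPA2, EXPA8, EXPA1 and EXLB1 kept their calls in all 14 other settings, with log2 fold changes of -1.69 to -1.18, -2.01 to -0.83, 0.61 to 0.78, -0.49 to -0.43 and -1.26 to -0.85. EXPB1 kept its call in 11 and EXPB3 in 8. Leaving out 1 library gave 1 higher and 4 to 6 lower expansin genes, and 406 to 791 higher and 735 to 1302 lower genes in all. It left 0 to 2 acid growth genes higher and 0 to 1 lower, and 0 to 2 wall synthesis genes lower. With no filter 0 acid growth genes were higher by limma. In the filtered fit 7 of the 23 tested genes of the list had an unadjusted limma p under 0.05. So had 4406 of all 19710 tested genes. With limma-voom 2 guard cell genes were lower, OST1 and FAMA. Signs reversed for members near 0 that were never called. EXPA9 was at 0.01 with median-ratio scaling, and EXLA3 at 0.02 and EXPA7 at 0.10 with limma-voom. Without 1 library, the log2 fold change was -0.38 to 0.28 for EXPA7, -0.06 to 0.18 for EXLA1, -0.02 to 0.08 for EXPA10, -0.05 to 0.09 for EXPA13, -0.09 to 0.08 for EXPA3, -0.12 to 0.03 for EXPA5 and -0.05 to 0.03 for EXPA9. EXLA3 passed the filter in only 3 of these fits, at -0.41 to 0.04. In each case the cause was not tested. Same-numbered libraries deviated together at correlations of -0.03, 0.15 and 0.04, and 3 of 6 libraries correlated best with their own number, so the numbers are not taken as pairs. With the replicate block 2 expansin genes were higher, EXPA8 and EXPA18 (limma adjusted p = 0.0456), and 2114 genes were called in all.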

Other observations

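The tested expansins form 8 pairs of closest relatives by coding sequence. In 3 of them the ratio of RPKM between the members did not overlap between the genotypes. No share of such pairs was computed over other genes, while 27.0% of single tested genes showed no overlap. EXPA16, EXPA2 and EXPA8 were already called by themselves, so the ratios that hold them are no separate result. EXPA16 stood at 0.243, 0.251 and 0.298 times EXPA4 in Col-0 and at 0.102, 0.111 and 0.0751 times in the mutant. EXPA18 stood at 1.11, 0.904 and 1.20 times EXPA7 in Col-0 and at 2.01, 1.51 and 1.35 times in the mutant. The third was EXPA2 with EXPA8. On differences of log2(RPKM + 1), a two-sided exact permutation test gave p = 0.1 for each of these 3 pairs, the smallest that 3 against 3 libraries can give, and 0.267 adjusted by Benjamini-Hochberg over the 8 pairs. Any pair without overlap must give p = 0.1 in this permutation test, so the p adds nothing to the lack of overlap. For EXPB1 with EXPB3, which fell together, the exact permutation p was 0.3.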
